A study of Mus musculus with 4 samples.

Results

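Peritubular capillary endothelial cells were described in single-cell RNA-Seq of mouse kidney. A barcode, taken as a cell, was kept if it had between 200 and 5000 genes with a UMI (unique molecular identifier, a counted RNA molecule) and if under 50% of its UMIs were mitochondrial. Members were chosen by their UMIs of named genes. A member had at least 5 UMIs, and at least 15 per 10000, of the endothelial genes Emcn, Pecam1, Kdr, Flt1 and Egfl7. It also had at least 3 UMIs of Plvap, Igfbp3 and Esm1 together, under 2 of the glomerular genes Ehd3, Gata5 and Sost, and under 2 of the arterial genes Sox17 and Gja5. Of 58660 deposited barcodes, 34789 were kept, 3507 met the endothelial limit and 1168 were members.

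All mice were male C3H (C3H/HeJ), 18 weeks old at harvest. WT mice carry functional SGLT2, the glucose cotransporter of the proximal tubule, and Sweet Pee (SP) mice are homozygous for a missense mutation of its gene, Slc5a2. From 10 weeks of age each genotype received normal diet (ND) or high-fat diet (HFD, 60% of calories from fat) for 8 weeks. The libraries are named WT-ND and WT-HFD, and for SP likewise. Each is 1 library from digested whole kidney, and the number of mice behind a library is not given in the sources used here. Since each group is 1 library, no spread between replicates and no test of a group difference can be given. The 95% intervals cover counting error only, and diet or genotype cannot be told apart from the library. Wherever 4 values follow each other, they stand for WT on ND, WT on HFD, SP on ND and SP on HFD, in that order.

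Peritubular capillaries are the fenestrated vessels wrapped around the tubules, which take up the fluid and solutes that the tubules reabsorb. Plvap encodes the protein of the diaphragm that spans their fenestrae. Gpihbp1 holds lipoprotein lipase on the capillary wall, so that circulating triglyceride is split there, Cd36 takes up the fatty acids, and the fatty acid-binding proteins Fabp4 and Fabp5 carry them inside the cell.

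The 4 libraries held 207, 208, 361 and 392 members among 859, 779, 807 and 1062 endothelial barcodes. In WT, members were 24.1% of endothelial barcodes on ND (95% Clopper-Pearson interval 21.3 to 27.1) and 26.7% on HFD (23.6 to 30.0). In SP, they were 44.7% on ND (41.3 to 48.2) and 36.9% on HFD (34.0 to 39.9). Both SP libraries held a larger share of members than both WT libraries. Glomerular barcodes moved the other way and made up 33.2%, 25.9%, 13.3% and 22.8% of endothelial barcodes. The median depth of a member was 1843, 3318.5, 2333 and 2521.5 UMIs, and the rule counts UMIs. When each endothelial barcode was first thinned to 1000 UMIs, the shares were 24.5%, 34.9%, 43.6% and 41.1%, so that the distance between WT-HFD and the SP libraries shrank. Fewer cells recovered from the digestion and fewer cells in the kidney cannot be told apart.

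**Figure D1:**
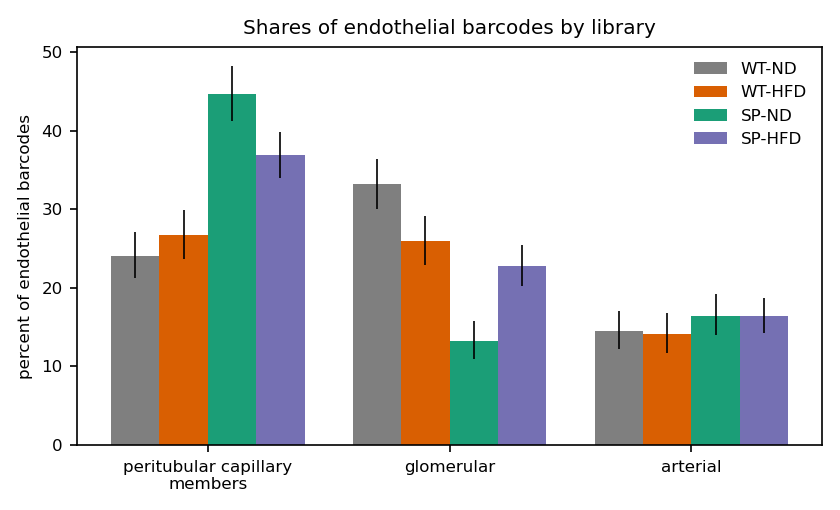
Bars give the percent of endothelial barcodes in each of the 4 libraries that were peritubular capillary members, glomerular or arterial by the marker limits, with 95% Clopper-Pearson intervals as error lines. Members reached 44.7% in SP-ND and 36.9% in SP-HFD, against 24.1% in WT-ND and 26.7% in WT-HFD.

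The members together held 442707, 832757, 1042217 and 1196920 UMIs. Levels are given as UMIs of a gene per 1000000 of these pooled UMIs (CPM). Exactly 3 UMIs of Plvap, Igfbp3 and Esm1, the lowest count inside the rule, were found in 23, 6, 31 and 18 members, and 19, 13, 24 and 16 barcodes stayed just outside with 2. A total of 15 member barcodes also occurred in another library, and 1 of them was a member in both SP libraries.

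Genes that chose the members are given only as a description. Plvap was at 2098, 2234, 2126 and 2149 CPM, and between 95.2% and 97.1% of members had a UMI of it. Igfbp3, a binding protein of insulin-like growth factors, was at 1812, 1995, 1383 and 1654 CPM. Esm1, a secreted proteoglycan of VEGF-stimulated endothelium, was at 1066, 1089, 818 and 1270 CPM. Plvap was near level across the libraries, whereas Igfbp3 and Esm1 were lowest in SP-ND. No UMI of Igfbp3 or Esm1 beside Plvap was seen in 14.98%, 19.7%, 19.9% and 20.4% of members.

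Gpihbp1 and Rgcc, which are linked to this capillary bed and were not part of the rule, were high in the members. After thinning to 1000 UMIs, a Gpihbp1 UMI was found in 58.4%, 54.9%, 52.7% and 63.1% of members, in 6.9% to 14.96% of glomerular barcodes and in none of the T cells of any library. Rgcc, a regulator of the cell cycle, was found in 40.1%, 43.2%, 46.4% and 58.4% of members, in at most 2.0% of glomerular barcodes and in 1.1% to 5.6% of T cells, which can express it. In arterial barcodes the shares were 14.4% to 20.9% for Gpihbp1 and 2.4% to 12.7% for Rgcc. The share of members with a Gpihbp1 UMI was above that which free RNA gives. Markers of other vessels were not all absent. The 8 venous and ascending vasa recta genes, which the rule did not use, summed to 520, 700, 664 and 629 CPM, led by Gas6. In all kept barcodes they summed to 257, 263, 279 and 298 CPM. Of the glomerular genes the rule held down Ehd3, Gata5 and Sost, and Plat, plasminogen activator, which it did not use, was at 248, 412, 368 and 395 CPM. The 6 lymphatic genes summed to 108, 399, 176 and 98.6 CPM, more than in all kept barcodes (28.1, 38.2, 41.6 and 39.6). Flt4, a VEGF receptor, led them in all libraries but WT-HFD, at 99.4, 93.7, 80.6 and 89.4 CPM, and Ccl21a led in WT-HFD at 262 CPM. Prox1, the lymphatic master regulator, was at 6.78, 4.80, 4.80 and 5.85 CPM.

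Members differed widely from glomerular and arterial endothelium, and because the rule set these groups apart the values are descriptive. Fabp4 was at 3422, 8180, 4931 and 10034 CPM in members, against 56.0, 40.1, 26.7 and 64.9 CPM in glomerular barcodes. The log2 ratio lay between 5.93 and 7.67 in the 4 libraries. Cd93, a receptor of endothelial adhesion, was higher in members by 4.26 to 5.08, the transcription factor Irx3 by 3.90 to 5.93, and Aplnr, the apelin receptor, by 3.60 to 4.69. Npr3, the clearance receptor for natriuretic peptides, was higher than in glomerular barcodes by 3.13 to 5.04 and higher than in arterial ones by 2.51 to 3.18. It was the only gene among the 10 highest against both other groups.

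Other genes were lower in members. Against glomerular barcodes the guidance molecule Sema5a was lower by log2 ratios of -5.43 to -4.54, the nucleotide receptor P2ry1 by -4.52 to -3.88, Bmp6, a bone morphogenetic protein, by -4.83 to -3.71 and the transcription factor Tbx3 by -4.25 to -3.16. Against arterial barcodes the elastic fibre gene Fbln5 was lower by -5.77 to -3.61, Bmp2 by -5.20 to -3.61 and the chemokine Cxcl12 by -6.72 to -3.22. Enho, the gene of the secreted peptide adropin, was higher than in arterial barcodes by 4.14 to 5.31, and Inhbb, the activin subunit, by 3.45 to 4.61. Igfbp5, another binding protein of insulin-like growth factors, was at 2469 CPM in members against 379 CPM in arterial barcodes of WT-ND.

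**Figure D2:**
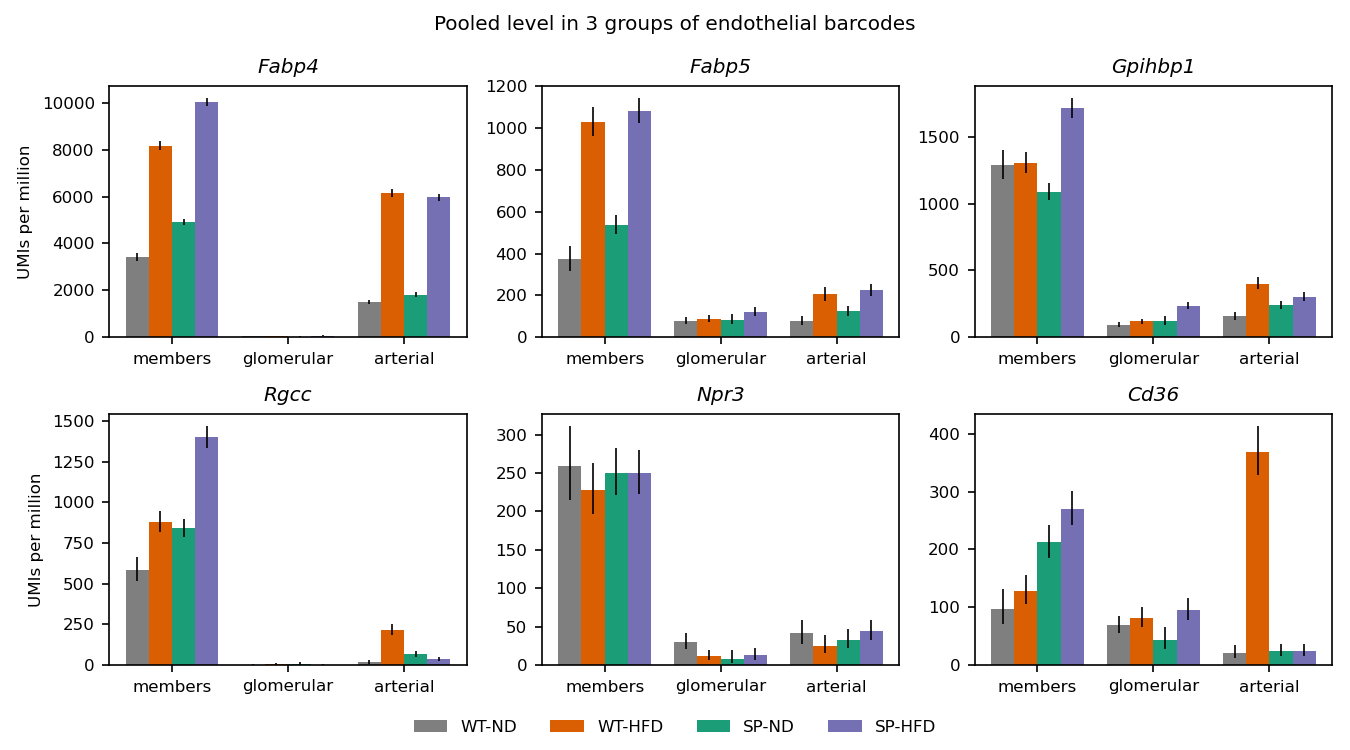
Bars give the pooled level (CPM) of 6 genes in members, glomerular and arterial endothelial barcodes, coloured by library, with exact Poisson 95% intervals. Fabp4, Gpihbp1, Rgcc and Npr3 were far below the member level in glomerular barcodes, and Fabp4 was higher in the HFD libraries among both members and arterial barcodes.

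The members were not uniform, and a split by a UMI of Igfbp3 or Esm1, which the rule used, is given as a description. Those without an Igfbp3 UMI (56, 66, 120 and 131) held most of the RNA of Cryab, a small heat shock protein, and of Mgp, an inhibitor of calcification. In WT-HFD, Cryab was at 2914 CPM in members without Igfbp3 and 291 CPM in those with it, and in SP-ND at 1639 and 118 CPM, where 337 of 950 and 332 of 641 Cryab UMIs lay in 1 member. In WT-ND it was at 179 CPM without and 32.7 CPM with Igfbp3, and in SP-HFD at 601 and 101 CPM. Over the 4 libraries the log2 ratio, with against without, was -3.79 to -2.46 for Cryab, and -3.72 to -1.73 when each member was first thinned to 1000 UMIs. The stress gene Nupr1, the caveolar gene Cavin2, the membrane protein gene Pmp22 and the hypoxia-inducible factor subunit Hif1a were also lower in members with Igfbp3 in every library, thinned or not. Cd36 was lower by -0.77 to -0.62, but after thinning its 4 ratios were -0.09, 0.31, -0.72 and -0.44.

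Other genes were higher in members with an Igfbp3 UMI. The log2 ratio was 1.39 to 3.65 for Npr3, 1.17 to 1.56 for the transcription regulator Tsc22d1, 0.80 to 1.54 for the ephrin Efnb2, 0.66 to 1.66 for the Notch ligand Dll4, 0.88 to 1.23 for Kitl, the ligand of the receptor Kit, and 0.68 to 1.20 for Gpihbp1. Splitting by an Esm1 UMI gave some of the same genes: Npr3, Dll4, Efnb2 and Gpihbp1 were again higher with, and Cryab, Mgp, Pmp22 and Nupr1 again lower, thinned or not. Cavin2 was also lower, but its thinned ratio in SP-ND was 0.20. The calciotropic hormone Stc1 was higher in members with Esm1 by 1.15 to 1.57.

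**Figure D3:**
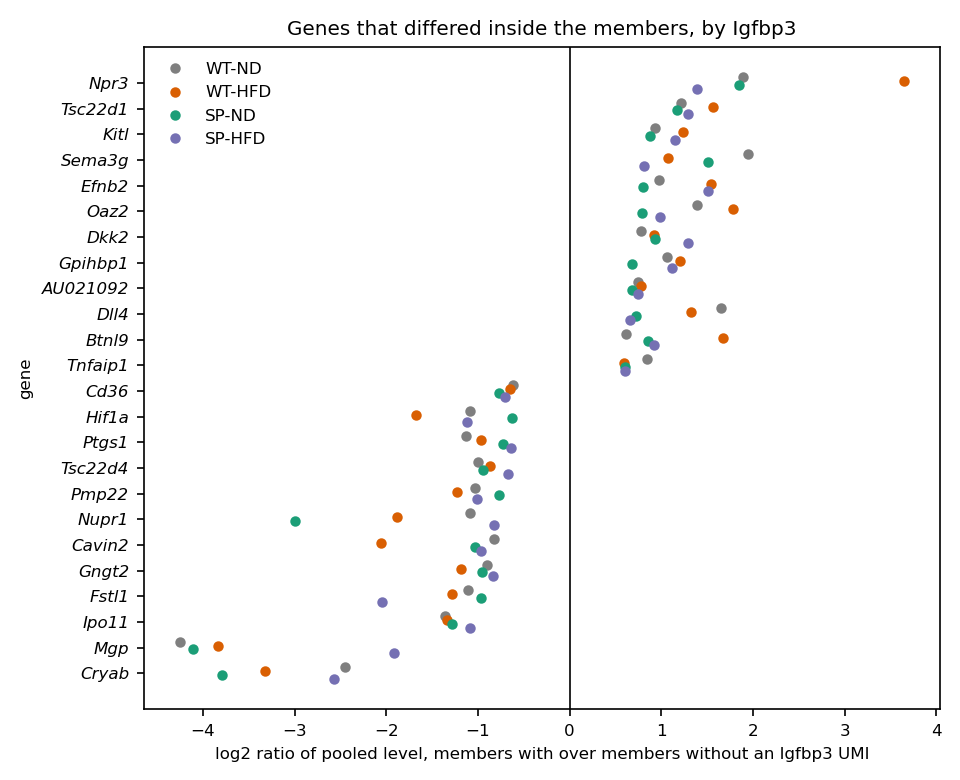
Each point is the log2 ratio of the pooled level of a gene in members with an Igfbp3 UMI over members without one, coloured by library, for the 12 genes highest and the 12 lowest by the value nearest 0. Cryab and Mgp stand at the low end in every library, and Npr3 at the high end.

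Levels in members were then compared between libraries for 6185 genes with a mean of at least 20 CPM. A gene was called when its level differed at least 2-fold, a log2 ratio of 1, with the counting interval off 0. HFD against ND in WT called 174 genes higher (2.81%) and 211 lower (3.41%), 6.22% of the genes compared in either direction. In SP, the same diet called 88 higher (1.42%) and 78 lower (1.26%), 2.68% in all. SP against WT called 154 higher (2.49%) and 149 lower (2.41%) on ND, 4.9% in all, and 59 higher (0.954%) and 41 lower (0.663%) on HFD, 1.62% in all. With ratios centred on their median, diet in WT called 135 higher and 245 lower, and genotype on ND 121 higher and 177 lower. When barcodes were thinned to 1000 UMIs before the members were chosen, 172 of the 385 calls for diet in WT, 73 of 166 for diet in SP, 121 of 303 for genotype on ND and 23 of 100 for genotype on HFD were called again. The median log2 ratio of all genes was 0.06 for diet in WT, -0.04 for diet in SP, 0.06 for genotype on ND and -0.02 for genotype on HFD. A total of 4592 genes were at least as abundant in members as in kept barcodes outside the endothelial limit, and these are called endothelial-borne. Of them, diet in WT called 145 higher and 47 lower, diet in SP 51 and 28, genotype on ND 106 and 31, and genotype on HFD 31 and 27.

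The fatty acid-binding proteins Fabp4 and Fabp5 were higher in both HFD libraries than in both ND libraries. Fabp4 (ENSMUSG00000062515) was at 3422 CPM in WT-ND, 8180 in WT-HFD and, for SP, 4931 and 10034, so that both HFD libraries lay above both ND libraries. HFD exceeded ND by a log2 ratio of 1.26 (95% interval 1.18 to 1.34) in WT and 1.03 (0.98 to 1.07) in SP. With free RNA subtracted, at the shares given below, which exceed the paper's own estimate, these were 0.79 and 0.99 and no longer called. The call was also lost in WT among members with an Igfbp3 UMI, and in SP with thinning before the member rule. After thinning to 1000 UMIs, a Fabp4 UMI was found in 67.0%, 85.0%, 67.5% and 87.8% of members, against 0.78% to 2.8% of T cells. Fabp5 (ENSMUSG00000027533) was at 373, 1028, 536 and 1084 CPM, with log2 ratios of 1.46 (1.22 to 1.71) in WT and 1.01 (0.87 to 1.16) in SP. With free RNA subtracted they were 0.999 and 0.98 and no longer called. The call in WT was also lost among members with an Igfbp3 UMI, and that in SP was kept in 7 of 12 alternatives.

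Of the 15 genes on the list of fatty acid uptake and handling, 6 reached 20 CPM, and HFD called 2 of them (Fabp4 and Fabp5) higher and 0 lower in each genotype, where 2.81% of all genes were called higher in WT and 1.42% in SP. Both calls were lost in both genotypes with free RNA subtracted. The median log2 ratio of the 6 was 0.93 in WT and 0.55 in SP. Gpihbp1 was at 1292, 1308, 1090 and 1717 CPM, with 0.02 (-0.13 to 0.17) for diet in WT and 0.66 (0.55 to 0.76) in SP. Tcf15, a transcription factor of fatty acid-transporting endothelium, was at 29.4, 57.6, 58.5 and 79.4 CPM, and Pparg, the nuclear receptor that binds fatty acids, fell below the limit at 11.3, 16.8, 10.6 and 29.2 CPM.

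Cd36 followed genotype. It was at 97.1 CPM in WT-ND, 128 in WT-HFD and, for SP, 212 and 271, so that both SP libraries were higher than both WT libraries. SP exceeded WT by a log2 ratio of 1.13 (0.65 to 1.63) on ND and 1.08 (0.76 to 1.40) on HFD, whereas the diet ratios were 0.40 (-0.12 to 0.95) and 0.35 (0.10 to 0.61). The call on HFD was lost when levels were taken as the mean over members of UMIs per 10000. The thinned share with a Cd36 UMI was 8.6%, 11.7%, 13.4% and 17.1% in members and 6.1%, 3.1%, 2.2% and 2.3% in T cells, and in both WT libraries the intervals of the pair overlapped, so that Cd36 was not separated from free RNA there. Cd36 was one of 4 endothelial-borne genes called higher in SP on both diets, with Rbp7, Gm525 and Ice1. It counts as endothelial-borne through SP: in barcodes outside the endothelial limit it was at 137, 124, 73.3 and 74.8 CPM, above or near the member level in WT. Gm525, at 0, 15.6, 16.3 and 52.6 CPM, reached the mean of 20 CPM through SP-HFD. On ND the Ice1 call was kept in 7 of 12 alternatives and that of Gm525 in 8.

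Rbp7 (ENSMUSG00000028996), a retinol-binding protein of endothelium, followed both diet and genotype. It was at 15.8, 72.0, 60.5 and 179 CPM, lowest in the first and highest in the last. HFD exceeded ND by 2.19 (1.06 to 3.56) in WT and 1.56 (1.15 to 1.99) in SP, and SP exceeded WT by 1.93 (0.81 to 3.31) on ND and 1.31 (0.89 to 1.75) on HFD. It was carried by few cells: 4, 22, 20 and 49 members had a UMI. Without the 3 richest members of each library, the ratios were 1.61 for diet in SP and 1.80 for genotype on HFD, both still called, but with barcodes thinned before the member rule they were 0.27 and 0.95 and not called. In WT-ND, 6 of its 7 UMIs lay in those 3 members, so that no such ratio is given against that library.

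**Figure D4:**
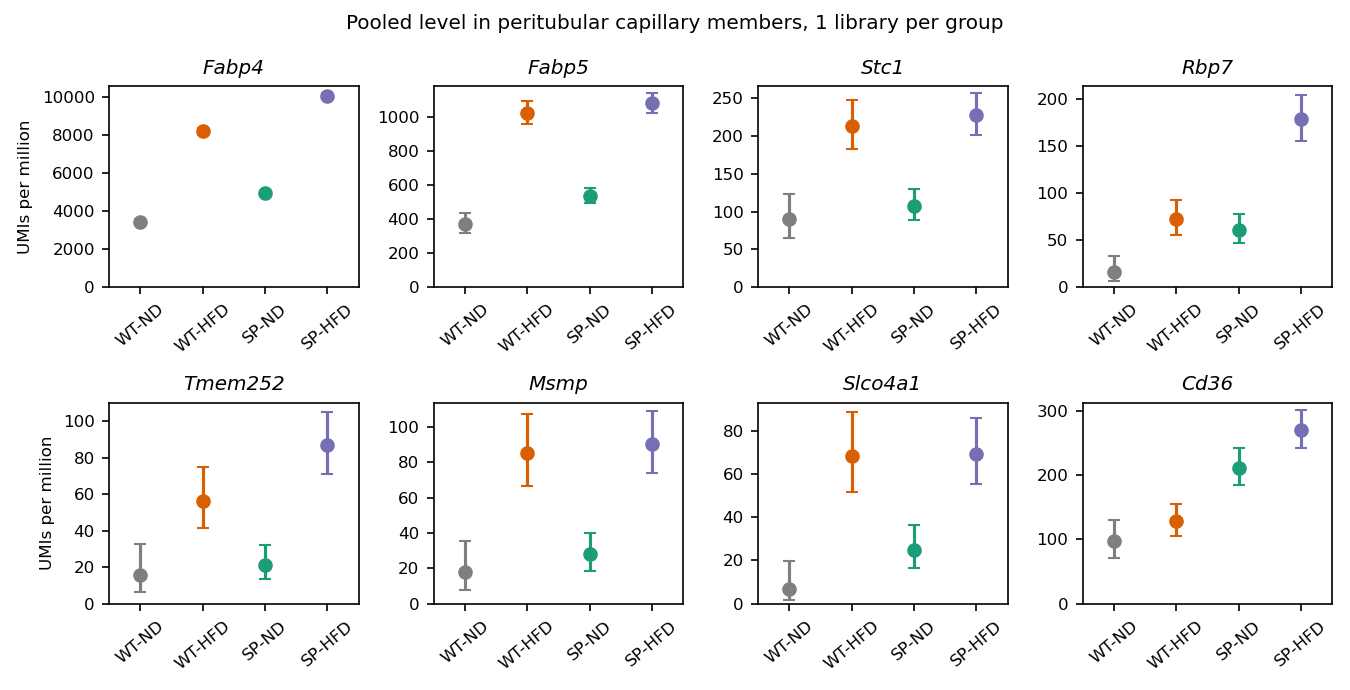
Pooled level (CPM, from 0) of 8 genes in the members of each library, with exact Poisson 95% intervals. Fabp4, Fabp5, Stc1, Tmem252, Msmp and Slco4a1 were higher in both HFD libraries, Cd36 was higher in both SP libraries, and Rbp7 was higher with both.

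A total of 19 genes were called higher with HFD in both genotypes, 10.9% of those called higher in WT and 21.6% of those in SP, and 14 of the 19 were endothelial-borne. Stc1, which encodes stanniocalcin, was at 90.4, 214, 107 and 228 CPM, with log2 ratios of 1.24 (0.74 to 1.78) in WT and 1.09 (0.76 to 1.42) in SP. Its call was lost in WT with free RNA subtracted (0.82), and in SP with thinning before the member rule (0.75) and among members with an Igfbp3 UMI (0.79). The organic anion transporter Slco4a1 was at 6.78, 68.4, 24.9 and 69.3 CPM, the secreted protein gene Msmp at 18.1, 85.3, 27.8 and 90.2, and the membrane protein gene Tmem252 at 15.8, 56.4, 21.1 and 86.9. In each of these the 2 HFD libraries were above the 2 ND libraries. In WT the call of Slco4a1 was lost among members with an Igfbp3 UMI, and that of Tmem252 with thinning before the member rule. Ankrd37, a target of the hypoxia-inducible factor, was at 9.04, 28.8, 13.4 and 60.2 CPM, and its call in WT was kept in 6 of 12 alternatives. Socs2, an inhibitor of cytokine signalling, was at 6.78, 28.8, 12.5 and 35.9.

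Hpgd, which degrades prostaglandins, was at 4.52, 75.7, 9.59 and 48.5 CPM, but 44 of its 63 UMIs in WT-HFD came from 1 member and 31 of 58 in SP-HFD from another. Its calls in both genotypes were lost without the 3 richest members of each library and with thinning before the member rule. It reached the mean of 20 CPM through the HFD libraries. Arterial barcodes held Hpgd at 409, 266, 243 and 301 CPM. Of the genes called lower with HFD in both genotypes, 29 in all, 2 were endothelial-borne. The chromatin reader Brd9 was at 72.3, 34.8, 59.5 and 29.2 CPM and the zinc finger gene Zfp710 at 58.7, 28.8, 40.3 and 17.5. In WT their calls were kept in 8 and 7 of 12 alternatives, and without the 3 richest members of each library their ratios were -0.97 and -0.997, just short of the limit, against -1.05 and -1.03 with them. The VEGF receptors Kdr and Flt1, which the rule used, were lower with HFD by less than 2-fold: Kdr by log2 ratios of -0.51 and -0.49, and Flt1 by -0.33 and -0.51, in WT and SP.

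Promoters of genes called for diet or genotype are shown. Of 16 genes looked for (up to 10 endothelial-borne genes called higher in both settings of diet and of genotype, with Fabp4, Fabp5, Gpihbp1 and Rgcc), 10 had an entry in the RefSeq promoter table (GRCm38.p6, 250 bases before to 50 after the gene start). AGGTCA was in a window of 5 of the 10 (Cd36, Gm525, Msmp, Slco4a1 and Tmem252), ACGTG in 2 (Ankrd37 and Rbp7) and neither in 3 (Hpgd, Ice1 and Rgcc). The 4 shown were picked from those with a match. Capitals mark AGGTCA, the nuclear receptor half-site, and ACGTG, the core of the hypoxia response element, on either strand. The sequences are read 5′ to 3′ along the gene, and all 4 genes lie on the minus strand, Rbp7 at chr4:149454919-149455218, Ankrd37 at chr8:45999801-46000100, Msmp at chr4:43584445-43584744 and Cd36 at chr5:17835847-17836146.
Rbp7: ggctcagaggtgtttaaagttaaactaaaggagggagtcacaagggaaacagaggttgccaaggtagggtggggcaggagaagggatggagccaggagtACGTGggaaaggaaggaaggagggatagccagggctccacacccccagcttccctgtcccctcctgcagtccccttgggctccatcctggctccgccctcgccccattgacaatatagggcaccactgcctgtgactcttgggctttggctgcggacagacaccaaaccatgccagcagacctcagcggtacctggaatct
Ankrd37: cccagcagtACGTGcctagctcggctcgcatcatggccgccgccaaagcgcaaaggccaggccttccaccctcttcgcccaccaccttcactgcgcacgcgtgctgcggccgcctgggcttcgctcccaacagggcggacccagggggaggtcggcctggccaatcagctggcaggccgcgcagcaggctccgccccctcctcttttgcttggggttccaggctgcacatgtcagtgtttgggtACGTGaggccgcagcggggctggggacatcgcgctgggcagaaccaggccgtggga
Msmp: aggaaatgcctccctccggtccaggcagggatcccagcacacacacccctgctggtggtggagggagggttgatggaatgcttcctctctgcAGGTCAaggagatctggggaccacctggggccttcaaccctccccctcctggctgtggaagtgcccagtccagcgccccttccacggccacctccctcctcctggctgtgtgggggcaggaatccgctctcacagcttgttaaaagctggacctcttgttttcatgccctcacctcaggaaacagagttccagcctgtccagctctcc
Cd36: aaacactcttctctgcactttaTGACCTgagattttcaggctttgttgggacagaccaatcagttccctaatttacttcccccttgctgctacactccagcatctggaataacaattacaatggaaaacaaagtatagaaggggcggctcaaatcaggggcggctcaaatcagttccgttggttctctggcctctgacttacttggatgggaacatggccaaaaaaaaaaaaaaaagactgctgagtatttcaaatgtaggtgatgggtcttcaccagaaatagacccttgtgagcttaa

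ACGTG stood once in the Rbp7 window and 2 times in that of Ankrd37, and 19.6% of all 32851 promoters hold it. AGGTCA stood once in the windows of Msmp and Cd36, and 16.3% of all promoters hold it. A pair of half-sites with 1 base between them, AGGTCANAGGTCA, was in 0 of the shown windows and is in 13 of all promoters. These are matches of letters only.

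Fabp4 was also higher with HFD outside the members. In arterial barcodes Fabp4 was at 1507, 6151, 1819 and 5977 CPM, with log2 ratios of 2.03 in WT and 1.72 in SP, and Stc1, Slco4a1 and Tmem252 were also higher there in both HFD libraries. Rbp7 and Cd36 did not follow the member pattern there: Rbp7 was at 8.21, 575, 43.2 and 100.01 CPM and Cd36 at 20.5, 369, 23.9 and 24.3 CPM, both highest in WT-HFD, with log2 ratios of SP to WT on HFD of -2.52 and -3.92. After thinning, 8.2% of arterial barcodes in WT-HFD and 4.6% in SP-HFD had an Rbp7 UMI, and 7.3% and 2.9% a Cd36 UMI. The intervals overlapped for both genes, so few arterial barcodes carried the high WT-HFD levels. Msmp stayed at or under 8.82 CPM in arterial barcodes. Inhbb was at 29.4, 82.9, 27.8 and 56.0 CPM in members and at or under 7.56 CPM in arterial barcodes. In glomerular barcodes Fabp4 was between 26.7 and 64.9 CPM. No test of these differences is possible with 1 library per group.

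Diet in WT also called genes that were concentrated in few members. Mgp was at 6.78, 179, 341 and 19.2 CPM and Cryab at 67.8, 1141, 615 and 267, high in WT-HFD and SP-ND and low in WT-ND. Arterial barcodes held Mgp at 2415, 1418, 1205 and 2013 CPM. Of 7 arterial and descending vasa recta genes compared, 2 were called higher for diet in WT and 1 for genotype on ND, beside 2.81% and 2.49% of all genes: the urea transporter Slc14a1, called in both, was at 11.3, 60.0, 48.9 and 93.6 CPM and Fbln5 at 11.3, 50.4, 25.9 and 45.1. The whole list of 11 summed to 761, 851, 715 and 878 CPM, led by Efnb2 on ND and by Aqp1, a water channel, on HFD, with Bmx at 0 in both WT libraries. In WT-HFD 179 of 237 Aqp1 UMIs lay in 3 members, and in SP-HFD 106 of 283. The rule held down Sox17 and Gja5, and the part of arterial cells in these results was not tested. In SP-ND, 278 of 355 Mgp UMIs came from 1 member, and in WT-HFD 93 of 149. The calls of Cryab for diet in WT and for genotype on both diets were kept in all 12 alternatives, with 3.80, 2.36 and -1.48 without the 3 richest members of each library. For diet in SP the ratio of Cryab was -1.20 and, without those members, -0.046. After thinning, a Cryab UMI was found in 5.1%, 13.6%, 7.1% and 8.8% of members and in 1.8%, 3.1%, 4.4% and 2.8% of T cells. The intervals of members and T cells were apart only in WT-HFD, so Cryab was not separated from free RNA in the other libraries. The lymphatic chemokine Ccl21a, which has near-identical copies and is therefore uncertain, was at 0, 262, 76.8 and 0 CPM, and all 218 and all 80 of its UMIs lay in 1 member each. The vasoconstrictor Edn1 was at 18.1, 60.0, 28.8 and 22.6 CPM with 35 of 50 WT-HFD UMIs in 1 member, and the interferon-induced chemokine Cxcl10 at 4.52, 69.6, 14.4 and 15.9 with 57 of 58. Vcam1, the leukocyte adhesion molecule, was at 11.3, 76.9, 37.4 and 58.5 CPM and was called for diet in WT and genotype on ND.

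Of 24 leukocyte adhesion and NF-kB genes, 12 were compared, and 2 were called higher with HFD in WT (Vcam1 and Cxcl10), 0 in SP, beside 2.81% and 1.42% of all genes. The Cxcl10 call was lost without the 3 richest members, and Cxcl10 reached the mean of 20 CPM through WT-HFD, where it was called higher. Of 9 hypoxia genes compared, HFD called Ankrd37 and Ddit4 higher and Ndrg1 lower in WT, and Ankrd37 and P4ha1, a collagen hydroxylase, higher in SP. Ankrd37 reached the mean of 20 CPM through the HFD libraries. Of all genes, 2.81% were called higher and 3.41% lower in WT, and 1.42% higher in SP. Ndrg1 was at 506, 190, 342 and 235 CPM, its ratio turned to 0.53 with free RNA subtracted, and it is more abundant in kept barcodes outside the endothelial limit. In SP, HFD called 2 of 12 heat shock genes higher, beside 1.42% of all genes: Dnaja1 was at 569, 650, 419 and 1044 CPM, with a diet ratio in log2 of 1.32 (1.16 to 1.48), and Dnajb1 at 104, 126, 41.3 and 117 CPM, with 1.50 (1.00 to 2.03), lowest in SP-ND. Hilpda, a lipid droplet protein, was at 45.2, 55.2, 16.3 and 72.7 CPM and Enho at 54.2, 79.2, 24.0 and 79.4, and SP-ND was the lowest library for both.

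In SP on HFD, 3 of 5 class II antigen presentation genes compared were called higher than on ND (H2-Eb1, H2-Aa and Cd74), beside 1.42% of all genes, and 3 were higher than in WT on HFD (H2-Eb1, H2-Ab1 and Cd74), beside 0.954%. The 8 macrophage and monocyte markers moved with them: they summed to 15.8, 25.2, 11.5 and 56.0 CPM, led in SP-HFD by C1qa at 15.9 CPM, and 1, 5, 1 and 3 members held 2 or more of their UMIs. None of the 8 was at 0 in SP-HFD, and their part in the result was not tested. Cd74, the invariant chain, was at 228, 150, 167 and 397 CPM and H2-Eb1 at 9.04, 12.01, 7.68 and 91.9. H2-Eb1 reached the mean of 20 CPM through SP-HFD, the library in which it was called higher. These genes were at most 0.38 times as abundant in members as in the kept barcodes outside the endothelial limit. Without the 3 richest members of each library, Cd74 was 0.33 higher for diet in SP and 0.60 higher for genotype on HFD, no longer called. Among members with an Igfbp3 UMI the same ratios were -0.0018 and -0.00029, and thinning before the member rule turned Cd74 to -1.74 for genotype on HFD.

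On ND, Mgp, Cryab and Spaar, which encodes a small peptide, were higher in SP than in WT. Spaar was at 9.04, 45.6, 47.0 and 57.6 CPM. Akr1b3, aldose reductase, was at 138, 659, 654 and 446 CPM. In SP-ND, 382 of its 682 UMIs came from 1 member, and without the 3 richest members of each library the ratio of SP to WT on ND was 0.77 and no longer called. After thinning, an Akr1b3 UMI was found in 8.1% to 13.1% of members and in 5.6% to 10.0% of T cells. The intervals of members and T cells overlapped in each library, most narrowly in SP-HFD (9.8 to 16.8 against 2.7 to 10.1). Genes lower in SP-ND included Cxcr4, the receptor of Cxcl12, at 49.7, 45.6, 14.4 and 36.8 CPM, Pdgfa, a growth factor for mural cells, at 54.2, 38.4, 17.3 and 32.6, and Mxra8, a matrix remodelling protein, at 45.2, 28.8, 9.59 and 22.6.

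Atf3, an immediate early transcription factor, was lower in SP on both diets, at 224, 247, 83.5 and 94.4 CPM, with log2 ratios of -1.42 (-1.85 to -0.99) on ND and -1.39 (-1.73 to -1.05) on HFD. It was near the level in barcodes outside the endothelial limit. In WT-HFD, 70 of its 206 UMIs came from 1 member, and without the 3 richest members of each library the ratio on HFD was -0.74 and no longer called. On HFD, SP exceeded WT in Cyp26b1, which breaks down retinoic acid, at 31.6, 36.0, 58.5 and 109 CPM, and in Slc12a2, a chloride cotransporter, at 31.6, 19.2, 48.0 and 53.5.

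Of 80 cytosolic ribosomal protein genes, 76 oxidative phosphorylation genes, 16 VEGF and angiopoietin genes, 8 genes of caveolae and fenestral diaphragms 9 PRC2 (H3K27 methylation) genes and 11 fatty acid oxidation genes compared, 0 were called in any comparison. With 1.62% to 6.22% of all genes called, a count of 0 in the short lists is near the background. Their median log2 ratios for diet in WT were 0.19, -0.12, 0.05, 0.39, -0.0047 and -0.35, beside 0.06 for all genes, and for diet in SP 0.25, 0.06, -0.04, 0.07, -0.32 and -0.08, beside -0.04.

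Proximal tubule genes were the most abundant of the other cell types' markers in the members. The 14 proximal tubule genes summed to 15204, 4472, 3032 and 3566 CPM, led by Kap, an androgen-regulated gene. After thinning, a Kap UMI was found in 99.0%, 89.3%, 79.5% and 82.9% of members and in 99.1%, 91.5%, 67.8% and 85.3% of T cells. The list was highest in WT-ND, and 10 of its 12 genes compared were called lower both for diet in WT and for genotype on ND, beside 3.41% and 2.41% of all genes. Pck1, of gluconeogenesis, was called higher for diet in WT. Podocyte genes summed to 444 CPM in SP-ND against 72.3 to 90.2 in the others, and neutrophil genes to 230 CPM in WT-ND, where 1 member held 2 or more of their UMIs. Fibroblast genes stayed at or under 9.19 CPM. Taking all proximal tubule UMIs of members as free RNA with the make-up of the whole library gave a free share of 52.6%, 18.8%, 33.5% and 29.8% of member UMIs. These shares rest largely on Kap, at 11059 of the 15204 CPM in WT-ND, and may be too high. The paper reports a low ambient RNA share per sample, well under each of them. Subtraction of the paper's lower share was not tested, so calls lost with free RNA subtracted were lost under the larger shares only. With the larger shares subtracted, 193 of 385 calls for diet in WT, 107 of 166 for diet in SP, 177 of 303 for genotype on ND and 70 of 100 for genotype on HFD were called again.

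**Figure D5:**
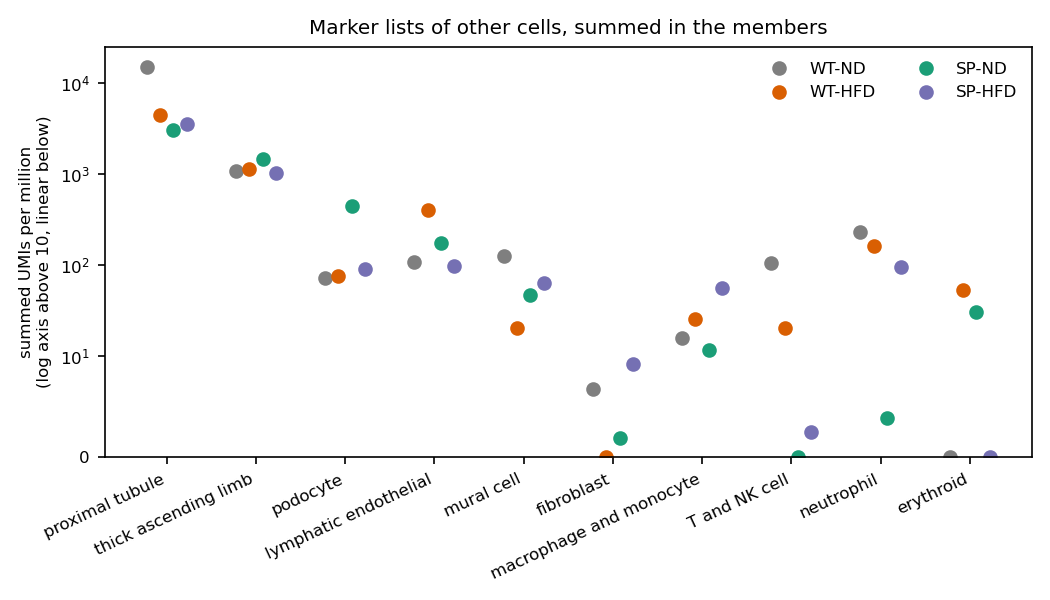
Each point is the summed level (CPM, log axis above 10 and linear below) of a list of marker genes of another cell type in the members of a library. Proximal tubule genes were at 15204 CPM in WT-ND and 3032 to 4472 CPM in the other 3 libraries.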

How the data were processed

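The libraries are droplet-based (10x Genomics 3′ v3.1). The authors deposited counts of UMIs per gene and barcode for 32285 genes, without normalization. The file headers name Cell Ranger 6.1.2 and the submitters' processing notes Cell Ranger 2.1.1 with the build mm10. The study describes doublet removal (scDblFinder and marker genes) and a SoupX correction for free RNA in its own analysis. Neither is stated to precede deposit, and the deposited counts still hold barcodes outside the study's filters. Library totals were 93142028 (WT-ND), 115117649 (WT-HFD), 111617794 (SP-ND) and 90728590 UMIs (SP-HFD), and every barcode held at least 500.

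The members and the gene lists were chosen with earlier results of these data known. Member UMIs were summed per library. Levels have exact Poisson 95% intervals, log2 ratios exact conditional binomial intervals and shares Clopper-Pearson intervals, all for counting error only. A count of 0 was taken as at most 3 counts. Named genes were, per comparison, the 10 highest and 10 lowest endothelial-borne called genes, the top 10 called in both settings of diet or genotype, and the 10 most extreme against each other endothelial group. Mitochondrial and rule genes were left out, and list members, genes of the Igfbp3 and Esm1 splits, Inhbb, Akr1b3 and Ndrg1 were also described. T cells had at least 3 UMIs of T cell receptor genes. Doublets were not removed in the values given, and a limit of 2% of UMIs from other cells' markers was an alternative. The ratios and thinning were tested on simulated data. Computing used scipy 1.17.1, numpy 2.4.6 and pandas 2.3.3 in Python 3.11.15, with plots by matplotlib 3.10.9.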

Additional observations from a re-analysis of the deposited data

Results flagged for a closer look

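In these genes the library on HFD stood above that on ND in one genotype and below it in the other, or SP stood above WT on one diet and below it on the other. The difference was not tested in any of them. Ccl21a had log2 ratios of 5.27 for diet in WT, -4.94 for diet in SP, 3.502 for genotype on ND and -6.71 for genotype on HFD. Each is a bound against 3 counts per library, at least 38.6-fold higher, 30.6-fold lower, 11.3-fold higher and 104-fold lower, and all of its UMIs in a library lay in 1 member. Cryab had 4.07 for diet in WT and -1.20 in SP, and 3.18 for genotype on ND and -2.09 on HFD, with 337 of 950 UMIs in 1 member of WT-HFD and 332 of 641 in 1 member of SP-ND. Without the 3 richest members of each library Cryab was still called for diet in WT (3.80) and for genotype on ND (2.36) and HFD (-1.48). For diet in SP it was at -0.046 (-0.33 to 0.24), so that Cryab was no longer called in opposite directions for diet. Mgp had 4.72 and -4.15 for diet in WT and SP, and 5.65 and -3.22 for genotype on ND and HFD, and without the 3 richest members of each library it was at -0.86 for diet in SP and -0.72 for genotype on HFD, no longer called, whereas it was still called for diet in WT and genotype on ND, against a library (WT-ND) with 0 UMIs left. Nsg1, an endosomal protein gene, had 1.90 for diet in WT and -1.17 in SP, and its UMIs were spread over 4, 21, 42 and 23 members.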

How the results depend on the processing

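Of 1662 values of single genes under alternatives, 1527 were classed as the same, 124 as moved and 11 as reversed. The cause was not tested. A value classed as the same is not by itself shown to have kept its sign or its call. Calls of genes named by rank were often not kept in all 12 alternatives. Those kept were 4 of 18 higher and 1 of 12 lower for diet in WT, and 8 of 15 and 3 of 12 in SP. For genotype they were 7 of 13 higher and 2 of 10 lower on ND, and 3 of 12 and 5 of 10 on HFD. With free RNA subtracted, 628 (diet in WT), 277 (diet in SP), 598 (genotype on ND) and 202 (genotype on HFD) genes were called, of which 66.9%, 42.6%, 76.6% and 46.0% were higher, against 45.2%, 53.0%, 50.8% and 59.0% without it, and 193 of 385, 107 of 166, 177 of 303 and 70 of 100 earlier calls were among them. A limit of 5 CPM called 646, 456, 542 and 293 genes and no limit 676, 563, 575 and 350, since more genes were compared. Members with an Igfbp3 UMI, an alternative chosen after seeing the data, gave 250 calls for diet in SP and 162 for genotype on HFD. With at least 6 UMIs of Plvap, Igfbp3 and Esm1, members were 18.4%, 23.5%, 34.8% and 30.8% of endothelial barcodes, and after thinning 34.9% in WT-HFD and 41.1% in SP-HFD. Thinning before the rule reversed Slco2a1 for diet in WT (-1.43), Stmn2 for genotype on ND (-0.095), Cd74 (-1.74), Gem (-0.048) and Mgp (0.18) for genotype on HFD, and thinning before the Esm1 split reversed Wfdc2 (-0.10). Subtraction of free RNA reversed Ndrg1 for diet in WT (0.53). Among members with an Igfbp3 UMI, Cd74 was at -0.0018 for diet in SP and -0.00029 for genotype on HFD, and Edn1 at 0.56 for genotype on HFD. Without the 3 richest members, also chosen after seeing the data, Edn1 was at 0.10. Depth limits the low genes: 3 counts equal 6.78, 3.60, 2.88 and 2.51 CPM.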
